A study of Mus musculus with 34 samples.

Results

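The question addressed was how the hippocampal transcriptome of Dp16 mice given tofacitinib differed from that of Dp16 mice given vehicle. The comparison used the 5 Dp16 libraries labelled tofacitinib and the 3 Dp16 libraries labelled sham, 8 of the 34 polyadenylated RNA libraries in the series, with each library from 1 animal of 6 months of age. Members were chosen by their labels alone and no measured value entered the choice. Tofacitinib was given orally by gavage at 15 mg/kg each day over a month, and sham animals received the 0.5% methylcellulose vehicle on the same schedule. All 8 animals carried the Dp16 duplication, so an effect of the duplication itself is shared by both groups. The tofacitinib group held 3 females and 2 males, and the sham group 2 females and 1 male. The other animals were C57BL/6J wild type (WT, 5 tofacitinib and 5 sham), 5xFAD-Dp16 (4 tofacitinib and 3 sham) and 5xFAD (5 tofacitinib and 4 sham). Mice of the 5xFAD line carry human amyloid precursor and presenilin transgenes, driven by a neuronal promoter, bearing familial Alzheimer mutations, and 5xFAD-Dp16 mice carry these and the duplication. The other genotypes were used to share the estimate of the spread and to show levels side by side. The effect of tofacitinib in Dp16 was also tested for a difference from that in each of them. The labels do not say whether the animals of a group came from different litters.

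Dp16 mice carry an additional copy of the stretch of mouse chromosome 16 that is related to human chromosome 21, and are used as a model of Down syndrome. The duplication is present in every cell. The stretch holds the genes of 4 cytokine receptor chains, Ifnar1, Ifnar2, Ifngr2 and Il10rb. Receptors of this kind have no enzyme activity of their own and rely on Janus kinases (Jak1, Jak2, Jak3 and Tyk2), which phosphorylate the STAT transcription factors. After type I interferon, a complex that includes Irf9 switches on the interferon-stimulated genes, while SOCS proteins act as feedback inhibitors. Tofacitinib blocks the ATP site of Janus kinases, with preference for Jak1 and Jak3. It inhibits the enzymes and is used against inflammatory disease.

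Libraries held 17.0 to 20.4 M counts in the tofacitinib and 17.0 to 18.7 M in the sham group. Levels are counts per M counts (CPM) after TMM scaling, listed in the order of the animal numbers. Mitochondrially encoded genes took 4.07 to 7.32% of the counts in tofacitinib and 5.10 to 6.23% in sham libraries. The label of the tissue was met by markers of the hippocampus. The dentate gyrus marker Prox1 stood at 71.2 to 91.5 CPM in tofacitinib and 77.2 to 113 CPM in sham animals. The CA1 marker Wfs1 stood at 133 to 184 CPM in tofacitinib and 130 to 170 CPM in sham animals. The genotype label was met by the 107 tested genes of the duplicated stretch (chromosome 16, 75540514 to 97962622, GRCm38), whose mean log2 CPM was 3.89 ± 0.078 in tofacitinib (SD, n = 5) and 3.95 ± 0.042 in sham Dp16 animals (SD, n = 3). It was 3.31 ± 0.069 in tofacitinib and 3.33 ± 0.099 in sham WT animals (SD, n = 5 each).

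A single gene passed the test. Of 17518 genes tested with edgeR's quasi-likelihood test, 1 (0.00571%) was called at an adjusted p under 0.05. It was mt-Atp8, the mitochondrially encoded ATP8 subunit of ATP synthase, which was lower in tofacitinib animals. No gene was called higher (0%). At an unadjusted p under 0.05 there were 347 genes (1.98%), of which 224 (1.28%) were higher and 123 (0.702%) lower in tofacitinib animals. This threshold passes a share of about 0.05 of genes when none differs, and the share found was lower. DESeq2 called 2 genes (0.0114%), mt-Atp8 and Chrna6, a nicotinic receptor subunit. Chrna6 was at 0 CPM in 7 of the 8 animals and at 0.143 CPM in tofacitinib animal 3, so no fold is given for it. The log2 fold changes of all genes had a median of 0.000241, and 49.9% lay below 0. Their median standard error (SE) was 0.197. Of the 14672 genes with a mean of at least 1 CPM in either group, 12541 (85.5%) had a 95% interval that lay within -1 and 1 on the log2 scale. The animals of both groups did not overlap for 347 genes that were higher (1.98%) and 341 that were lower (1.95%) in tofacitinib animals. These shares are the background against which non-overlapping groups are read in what follows.

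The gene of mt-Atp8 lies on the plus strand of the mitochondrial genome (chromosome M, 7766 to 7969, GRCm38) and is 204 bases long. Its last 43 bases overlap the start of mt-Atp6, which encodes another subunit of the same enzyme (7927 to 8607). The sequence of the reference genome is shown because the overlap bears on which reads could be assigned to this gene. The overlapping bases are in capitals.
mt-Atp8: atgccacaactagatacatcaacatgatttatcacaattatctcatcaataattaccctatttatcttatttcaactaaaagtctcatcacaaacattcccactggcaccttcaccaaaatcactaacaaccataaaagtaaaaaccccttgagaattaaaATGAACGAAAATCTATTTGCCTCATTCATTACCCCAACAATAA
The assignment of reads in the overlap is not stated in the labels. Of the 12 words of 31 bases cut from the sequence of mt-Atp8, 1 was also found in a transcript of nuclear origin, the mitochondrial pseudogene Gm10925 on chromosome 1. For mt-Atp6, all 44 words were found in Gm10925.

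In tofacitinib animals mt-Atp8 stood at 22.5, 13.3, 11.3, 14.0 and 15.0 CPM, against 44.7, 20.7 and 42.7 CPM in sham animals. The groups overlapped, since tofacitinib animal 1 lay above sham animal 2, and the difference was carried by sham animals 1 and 3. The log2 fold change was -1.25 (SE 0.206, 95% interval -1.67 to -0.83, adjusted p = 0.0199). An exact two-sided permutation test over the 8 animals for this single gene, chosen after its values were seen, gave p = 0.0357, where the smallest p of the 56 splits was 0.0179. Per length, mt-Atp8 was at 74.1 ± 19.2 RPKM in tofacitinib (n = 5) and 176 ± 64.9 RPKM in sham animals (n = 3).

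**Figure D1:**
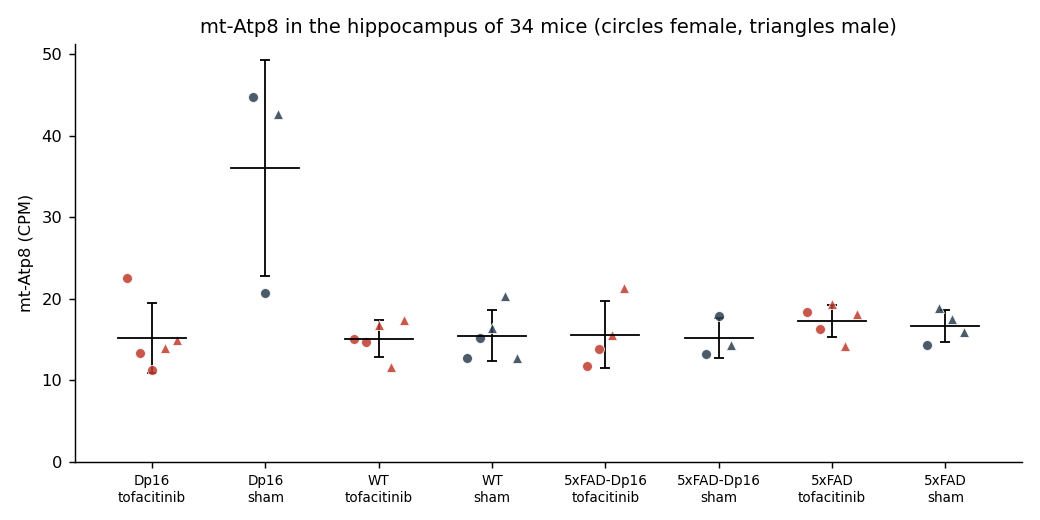
Level of mt-Atp8 in CPM (linear axis) in each of the 34 animals by group, with tofacitinib left of sham within each genotype. Lines and bars give mean and SD. Dp16 sham animals 1 and 3 lie at 44.7 and 42.7 CPM, and no other animal lies above 22.5 CPM.

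Sham animals 1 and 3 of the Dp16 genotype were the highest of all 34 libraries for mt-Atp8. The mean was 15.1 ± 2.24 CPM in tofacitinib and 15.5 ± 3.14 CPM in sham WT animals (n = 5 each), 15.6 ± 4.09 CPM in tofacitinib (n = 4) and 15.2 ± 2.45 CPM in sham 5xFAD-Dp16 animals (n = 3), and 17.3 ± 2.02 CPM in tofacitinib (n = 5) and 16.7 ± 1.96 CPM in sham 5xFAD animals (n = 4). The tofacitinib-treated Dp16 animals, at 15.2 ± 4.30 CPM (n = 5), lay in the same range. Tofacitinib over sham gave log2 fold changes of mt-Atp8 of -0.03 in WT, 0.005 in 5xFAD-Dp16 and 0.08 in 5xFAD animals. The difference of the Dp16 effect from these was -1.22 against WT (SE 0.279, adjusted p = 1.00), -1.25 against 5xFAD-Dp16 (SE 0.309, adjusted p = 0.998) and -1.33 against 5xFAD (SE 0.287, adjusted p = 0.584), and none passed the threshold with all libraries. The difference from 5xFAD passed it without tofacitinib animal 1 of Dp16 (-1.55, adjusted p = 0.0315) and without sham animal 2 of Dp16 (-1.59, adjusted p = 0.0303).

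The call of mt-Atp8 depended on single libraries. Without sham animal 1 the log2 fold change was -1.01 (adjusted p = 0.949), without sham animal 3 it was -1.15 (adjusted p = 0.322), and without any one of tofacitinib animals 2, 3, 4 and 5 it lay between -1.22 and -1.16 (adjusted p between 0.109 and 0.135). The call was kept without tofacitinib animal 1 (-1.46, adjusted p = 0.000438), the highest of its group, and without sham animal 2 (-1.51, adjusted p = 0.00037), the lowest of its group. When the 8 Dp16 libraries were fitted alone the fold change was -1.25 with an adjusted p of 0.999.

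The other mitochondrially encoded genes did not pass. Of the 15 listed mitochondrial genes, 10 had a log2 fold change below 0, and the median was -0.08. Without tofacitinib animal 1 the median was -0.26 and 7 of the 15 had an unadjusted p under 0.05, against 1 of 15 with all libraries. Over all genes tested 367 had such a p in that refit, against 347 with all libraries. The mean log2 CPM of the list was 9.89 in tofacitinib animal 1 and 8.89 to 9.31 in the other tofacitinib animals. The 7 genes are therefore not read as 7 separate results. Without tofacitinib animal 3 the median was 0.02, and without sham animal 3 it was 0.009. For mt-Co1, the catalytic subunit of cytochrome oxidase, the mean was 12200 CPM in tofacitinib and 12900 CPM in sham animals, a log2 fold change of -0.08 (SE 0.151). For mt-Nd1, a subunit of complex I, the mean was 6698 CPM in tofacitinib and 7020 CPM in sham animals, a log2 fold change of -0.07 (SE 0.153). For mt-Nd6, the protein-coding gene of the minus strand, the values were 148, 77.0, 74.0, 81.6 and 107 CPM in tofacitinib animals and 119, 106 and 137 CPM in sham animals. The sham animals of mt-Nd6 lay within the range of the tofacitinib animals (-0.31, SE 0.194, adjusted p = 1.0).

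The genes beside mt-Atp8 on the mitochondrial genome were read next. For mt-Atp6 the values were 307, 101, 84.5, 111 and 121 CPM in tofacitinib animals and 131, 121 and 146 CPM in sham animals. Tofacitinib animal 1 stood far above the rest for mt-Atp6. It was also the highest of its group for mt-Co2 (155 CPM, against 78.1 to 98.9 CPM in the other tofacitinib animals) and mt-Co3 (123 CPM, against 75.6 to 85.3 CPM). The same library was the highest of all 34 for mt-Atp6, mt-Co2, mt-Co3 and mt-Nd6. The log2 fold changes were 0.13 for mt-Atp6 (SE 0.267), 0.01 for mt-Co2 (SE 0.165) and 0.10 for mt-Co3 (SE 0.148). All words of 31 bases of these 3 genes were also found in nuclear pseudogenes of chromosome 1, and how reads with several matches were counted is not given, so their levels are uncertain.

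The targets of the pathway that tofacitinib blocks were examined next. None of 41 tested type I interferon-stimulated genes was called. Their median log2 fold change was -0.13, against 0.000241 over all genes, and 31 of the 41 lay below 0. At an unadjusted p under 0.05 there were 0 of 41, against 1.98% of all genes, and for none of the 41 did the groups fail to overlap. The mean log2 CPM of the list was 1.76, 1.53, 1.81, 1.30 and 1.49 in tofacitinib animals and 2.11, 1.41 and 1.42 in sham animals. Sham animal 1 was the highest of the 8, and the other sham animals lay inside the tofacitinib range. Without sham animal 1 the median of the list was 0.08, and without sham animal 2 it was -0.26. For reference, the list stood at 1.24 ± 0.29 in tofacitinib and 1.15 ± 0.27 in sham WT animals (SD, n = 5 each).

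Lgals3bp, a secreted glycoprotein induced by interferon, had the smallest p of this list. It stood at 36.9, 37.6, 27.7, 21.7 and 23.6 CPM in tofacitinib animals and 60.5, 31.2 and 30.1 CPM in sham animals. The groups overlapped, with sham animal 1 the highest of the 8. Its log2 fold change was -0.45 (SE 0.243, 95% interval -0.94 to 0.05, adjusted p = 1.0), and it was -0.09 without sham animal 1. In WT animals Lgals3bp averaged 18.0 CPM with tofacitinib and 19.1 CPM with sham.

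The other members with small p also overlapped between groups and did not pass (adjusted p = 1.0 each). Ifi44 had a log2 fold change of -0.70 (SE 0.490), the antiviral enzyme Rsad2 of -0.33 (SE 0.322), the poly-ADP-ribosyltransferase family member Parp9 of -0.23 (SE 0.215) and Irf7, the transcription factor that amplifies interferon production, of -0.33 (SE 0.336). Irf7 stood at 4.81, 2.86, 4.73, 1.95 and 2.17 CPM in tofacitinib animals and 6.04, 2.72 and 3.58 CPM in sham animals. The highest Irf7 value was again that of sham animal 1. Precision differed widely within the list: the 95% interval of Parp9 ran from -0.67 to 0.21, and that of Ifi44 from -1.70 to 0.30.

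**Figure D2:**
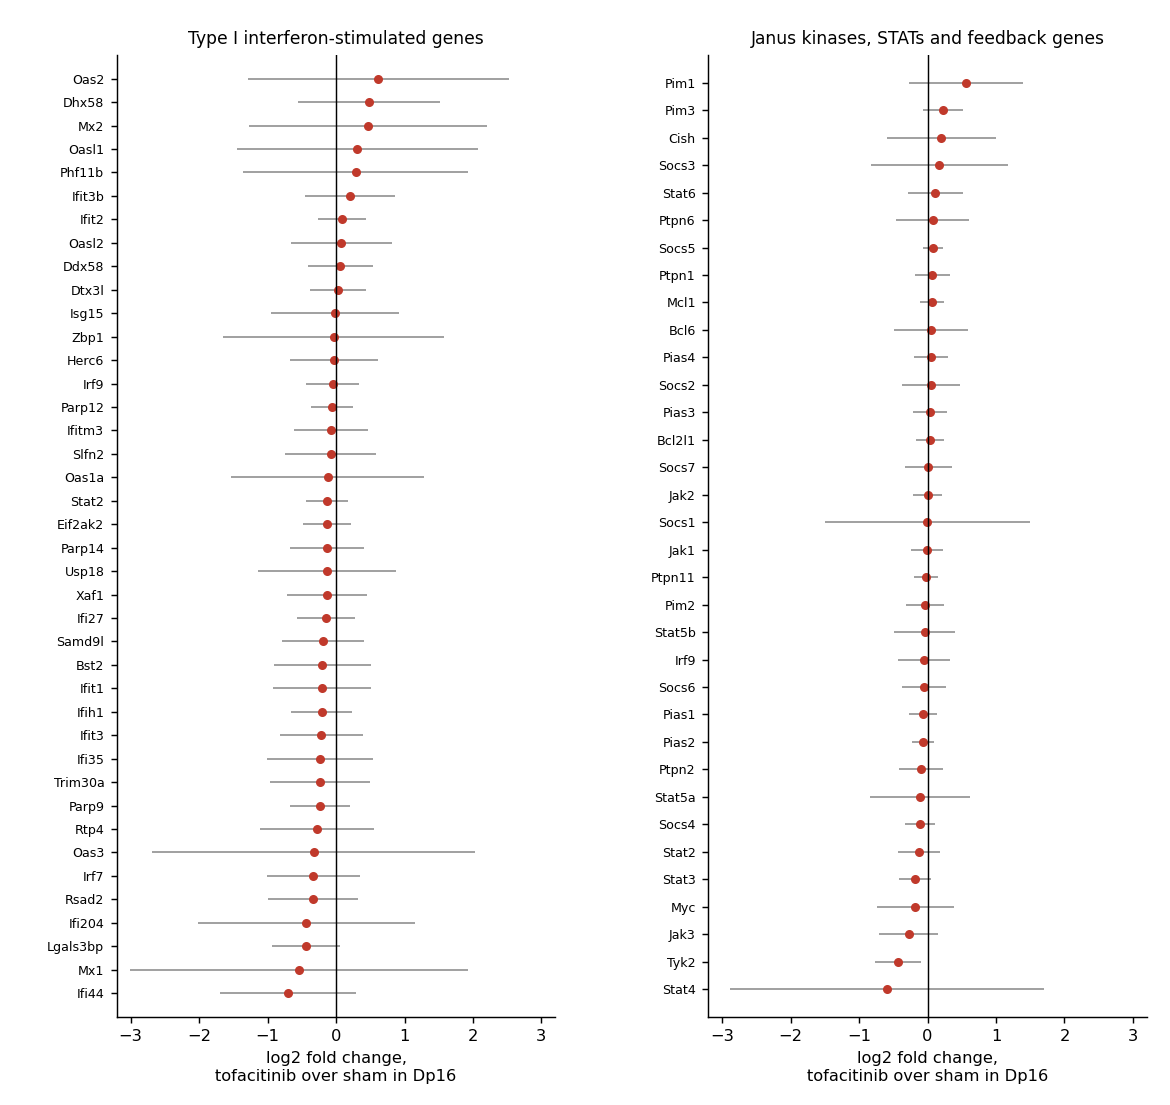
Log2 fold change of tofacitinib over sham in Dp16 animals for tested type I interferon-stimulated genes (left) and Janus kinase, STAT and feedback genes (right), with points for estimates and lines for 95% intervals. All intervals drawn in the left panel include 0, and in the right panel the interval of Tyk2 does not, at an unadjusted p of 0.0145.

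Genes of the interferon-gamma response and MHC class I gave a median of -0.16 with 27 of 36 below 0 and none called. The median was -0.03 without sham animal 1 and -0.27 without sham animal 2. The list stood at 2.46, 2.23, 2.39, 2.08 and 2.17 mean log2 CPM in tofacitinib animals and 2.59, 2.28 and 2.50 in sham animals, with overlap. Iigp1, an interferon-inducible GTPase of mice, was the 1 member whose groups did not overlap, at 3.59, 1.84, 3.30, 2.71 and 1.71 CPM in tofacitinib animals and 3.61, 3.78 and 4.23 CPM in sham animals. The highest tofacitinib animal lay just under the lowest sham animal for Iigp1 (-0.56, SE 0.225, unadjusted p = 0.0181, adjusted p = 1.0). Irf1, a transcription factor induced by interferon-gamma, had a log2 fold change of -0.40 (SE 0.203). The proteasome genes Psme1 and Psmb10 had positive ones, 0.21 (SE 0.109) and 0.29 (SE 0.161), so members of this list pointed in both directions. Irf1, Psme1 and Psmb10 overlapped between groups.

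The kinases themselves were compared per length first. Jak1 was the most abundant of the 4, at 34.3 ± 2.91 RPKM in tofacitinib (n = 5) and 34.5 ± 1.74 RPKM in sham animals (n = 3). Jak2 followed at 6.32 ± 0.36 RPKM in tofacitinib and 6.30 ± 0.329 RPKM in sham animals. Tyk2 was at 1.52 ± 0.152 RPKM in tofacitinib and 2.06 ± 0.407 RPKM in sham animals, and Jak3 at 1.01 ± 0.151 RPKM in tofacitinib and 1.22 ± 0.151 RPKM in sham animals. Jak1, the kinase used by most receptors of this kind, and Jak2 were well measured and close between groups.

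The log2 fold change of Jak1 was -0.01 (95% interval -0.24 to 0.22) and that of Jak2 was 0.002 (95% interval -0.21 to 0.21). Jak3, which pairs with the common gamma chain mainly in blood cells, had -0.27 (95% interval -0.70 to 0.16). Tyk2, which binds the Ifnar1 chain, stood at 9.49, 7.86, 9.22, 7.47 and 8.33 CPM in tofacitinib animals and 11.9, 13.6 and 9.04 CPM in sham animals. Sham animal 3 lay within the tofacitinib range of Tyk2, and the log2 fold change of -0.43 (SE 0.165) had an unadjusted p of 0.0145 and an adjusted p of 1.0. In WT animals Tyk2 averaged 8.82 CPM with tofacitinib and 8.36 CPM with sham.

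The STATs and the feedback genes did not pass either. Stat3 had a log2 fold change of -0.18 (SE 0.116), Stat2 of -0.13 (SE 0.150) and Irf9 of -0.05 (SE 0.188). Of the 12 Janus kinase and STAT genes tested, 10 lay below 0 and the median was -0.11. That median was -0.03 without sham animal 1, -0.04 without tofacitinib animal 2 and -0.22 without sham animal 2. The 23 feedback genes had a median of 0.04 with 9 below 0, and it lay between 0.01 and 0.06 when each Dp16 library was left out in turn. Among them the direct STAT targets Socs3 (0.17, SE 0.489), Cish (0.20, SE 0.392) and Socs1 (-0.01, SE 0.735) had wide standard errors, and stood between 0.0956 and 7.04 CPM in the 8 animals. The kinase gene Pim3, better measured, had 0.22 (SE 0.144).

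Of 26 receptor genes that signal through Janus kinases, none was called, 16 lay below 0 and the median was -0.07. It was -0.12 without tofacitinib animal 2 and -0.02 without sham animal 1. The chains encoded in the duplicated stretch were read first. Ifnar1 stood at 57.1, 62.9, 62.9, 52.0 and 56.8 CPM in tofacitinib animals and 61.1, 60.6 and 58.3 CPM in sham animals, a log2 fold change of -0.04 (95% interval -0.22 to 0.14). Ifnar2, its partner chain, stood at 28.9, 28.6, 27.7, 26.1 and 26.3 CPM in tofacitinib animals and 30.2, 32.7 and 31.1 CPM in sham animals. The groups of Ifnar2 did not overlap, with a log2 fold change of -0.19 (SE 0.104, adjusted p = 1.0). Both groups lay above the WT animals, in which Ifnar2 averaged 17.8 CPM with tofacitinib and 17.0 CPM with sham.

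Ifngr2, a chain of the interferon-gamma receptor, had a log2 fold change of 0.07 (95% interval -0.29 to 0.42), and Il10rb, a chain shared by several cytokine receptors, had -0.04 (95% interval -0.35 to 0.28). Outside the stretch, Il10ra was the other receptor gene without overlap, at 4.69, 3.59, 3.87, 3.09 and 4.81 CPM in tofacitinib animals and 5.87, 5.26 and 4.93 CPM in sham animals (-0.40, SE 0.234, adjusted p = 1.0). Il21r had -0.75 (SE 0.405), Lifr -0.18 (SE 0.118) and Ifngr1 -0.16 (SE 0.125), all with overlapping groups.

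The genes of the duplicated stretch were examined as a group. Of its 384 genes in the files 107 were tested, none was called, 64 lay below 0 and the median was -0.04. Of the 107, groups did not overlap for 6 genes that were higher and 3 that were lower. Over all genes tested these shares were 1.98% and 1.95%. Gabpa, a transcription factor of the stretch, had the smallest p of these 107, with a log2 fold change of -0.22 (SE 0.105, unadjusted p = 0.0442, adjusted p = 1.0) and overlapping groups. App, the amyloid precursor gene, stood at 1866, 2420, 2594, 2373 and 2386 CPM in tofacitinib animals and 2356, 2509 and 2096 CPM in sham animals. Its log2 fold change was 0.01 (95% interval -0.27 to 0.30), and tofacitinib animal 1 was the lowest of the 8. Cbs, which encodes cystathionine beta-synthase and lies on mouse chromosome 17 outside the stretch, had 0.20 (SE 0.128).

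Among genes that were not called, those of smallest p in the higher direction were Armc6, Nfkbil1, Vps37c, Tnfrsf13b, Zfp444, Amdhd2, Trmt1 and Hspbp1. The groups of all 8 did not overlap, and a choice by small p favours such groups. Armc6, an armadillo-repeat protein, stood at 22.9, 23, 23.8, 21.0 and 18.8 CPM in tofacitinib animals and 16.7, 15.4 and 15.8 CPM in sham animals. Its sham animals lay close together, below each tofacitinib animal. The log2 fold change was 0.46 (SE 0.102, adjusted p = 0.470).

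Nfkbil1, a nuclear protein encoded within the MHC region, stood at 11.9, 9.90, 11.3, 10.9 and 9.88 CPM in tofacitinib animals and 5.66, 5.56 and 9.10 CPM in sham animals. Sham animal 3 lay near the tofacitinib animals, and the log2 fold change was 0.68 (SE 0.153, adjusted p = 0.470). Vps37c, a subunit of the ESCRT-I sorting complex, stood at 24.1, 25.6, 25.3, 23.3 and 21.1 CPM in tofacitinib animals and 19.4, 16.9 and 18.4 CPM in sham animals (0.39, SE 0.099, adjusted p = 1.0). Exact two-sided permutation tests over the 8 animals gave p = 0.0179 for Armc6, for Nfkbil1 and for Vps37c. It is the smallest p these 56 splits allow, for genes picked by their small p. Groups without overlap give the most extreme split in their direction, so this p adds nothing to the absence of overlap.

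Tnfrsf13b, the B-cell receptor TACI, stood at 2.13, 1.60, 1.00, 2.22 and 1.71 CPM in tofacitinib animals and 0.916, 0.768 and 0.352 CPM in sham animals (1.34, SE 0.350, adjusted p = 1.0). The remaining log2 fold changes were 0.36 for the zinc finger gene Zfp444, 0.49 for Amdhd2, which removes the acetyl group from N-acetylglucosamine 6-phosphate, 0.36 for the tRNA methyltransferase Trmt1 and 0.27 for the Hsp70 co-chaperone Hspbp1. The sham animals of WT lay near the tofacitinib animals of Dp16 for several of these genes. Armc6 averaged 21.9 CPM in tofacitinib and 16 CPM in sham Dp16 animals, and 22.9 CPM in both tofacitinib and sham WT animals. Nfkbil1 averaged 10.8 CPM in tofacitinib and 6.77 CPM in sham Dp16 animals, and 11.5 CPM in tofacitinib and 10.5 CPM in sham WT animals. For Amdhd2 the sham WT animals, at 8.3 to 11.1 CPM, overlapped both Dp16 groups. Those stood at 10.4 to 13.4 CPM with tofacitinib and 7.49 to 9.04 CPM with sham. All these levels share the 3 Dp16 sham libraries with the fold changes above, from which the genes were picked, and are given as values.

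**Figure D3:**
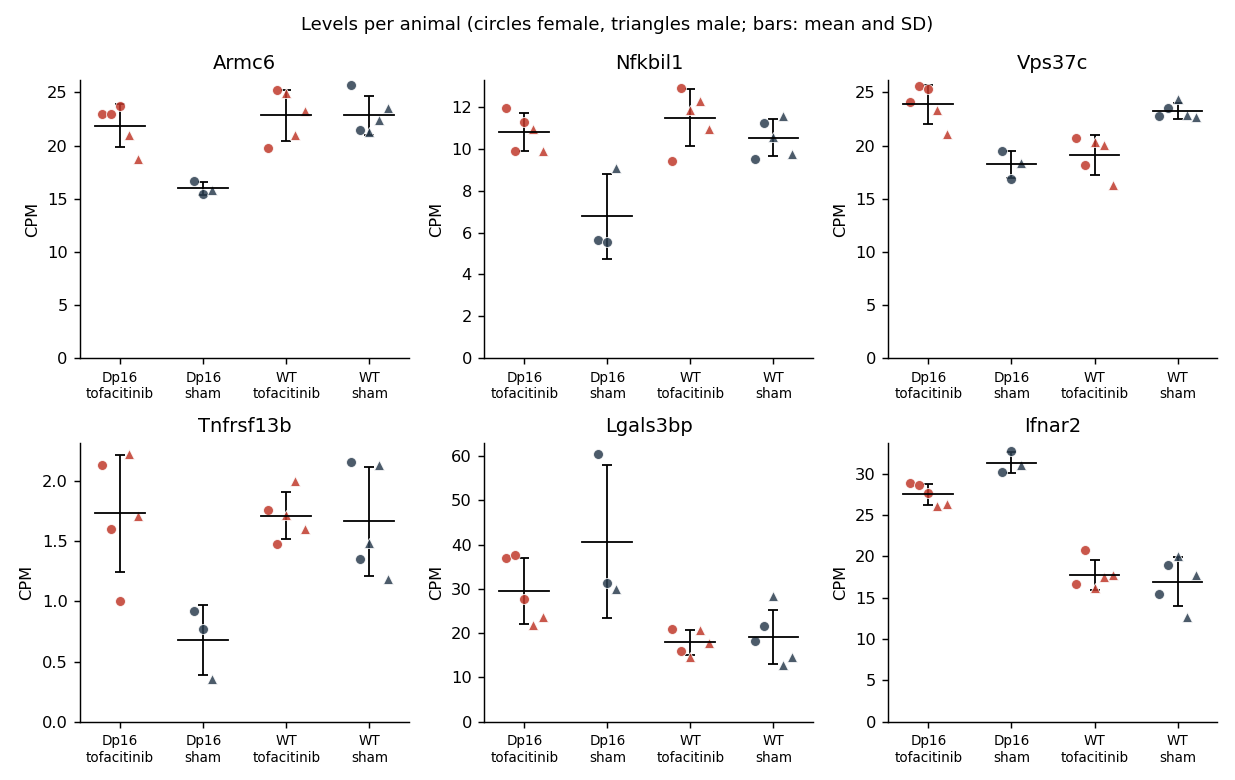
Levels in CPM (linear axes from 0) of Armc6, Nfkbil1, Vps37c, Tnfrsf13b, Lgals3bp and Ifnar2 in each Dp16 and WT animal, tofacitinib left of sham, with mean and SD. The Dp16 sham animals lie below all Dp16 tofacitinib animals for the first 4 genes and above them for Ifnar2, while the groups of Lgals3bp overlap.

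The smallest p in the lower direction, after mt-Atp8, belonged among genes with names of their own to Il18bp, Pggt1b, Asxl2, Was, Kdm6a, Alg10b and Tbccd1, and none passed (adjusted p = 1.0 each). Il18bp, the secreted decoy for interleukin-18 and a known interferon-gamma target, stood at 0.487, 0.631, 0.382, 0.650 and 0.362 CPM in tofacitinib animals and 1.13, 1.12 and 2.11 CPM in sham animals. The groups of Il18bp did not overlap, at levels near 1 CPM (-1.51, SE 0.501). Was, the actin regulator of blood-derived cells, stood at 2.25, 2.18, 1.53, 1.08 and 1.66 CPM in tofacitinib animals and 2.80, 3.07 and 2.76 CPM in sham animals (-0.73, SE 0.254). The groups of Was did not overlap either. The summed level of the microglial markers P2ry12, Tmem119 and Cx3cr1 did overlap, at 124 to 141 CPM in tofacitinib and 129 to 140 CPM in sham animals. The log2 fold changes were -0.37 for the prenyltransferase subunit Pggt1b, -0.37 for the chromatin regulator Asxl2, -0.34 for the histone demethylase Kdm6a of the X chromosome, -0.33 for the glucosyltransferase Alg10b and -0.38 for the tubulin cofactor domain protein Tbccd1.

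Whether tofacitinib over sham differed between Dp16 and the other genotypes was tested as a difference of fold changes. No gene passed in edgeR's test against WT (0%), against 5xFAD-Dp16 (0%) or against 5xFAD (0%). Against WT 396 genes (2.26%) had an unadjusted p under 0.05, with the effect in Dp16 more positive for 209 (1.19%) and more negative for 187 (1.07%). Against 5xFAD-Dp16 there were 471 such genes (2.69%), 290 in the positive (1.66%) and 181 in the negative direction (1.03%). Against 5xFAD there were 567 (3.24%), 262 in the positive (1.5%) and 305 in the negative direction (1.74%). Each total lies below the share of about 0.05 of genes that this threshold passes when none differs. The counts moved with single libraries and with the set fitted. The count against 5xFAD was 858 without tofacitinib animal 1 of Dp16. The count against WT was 634 in a fit without 3 libraries of other genotypes that an earlier analysis found low in hippocampal markers (WT tofacitinib animal 3, 5xFAD tofacitinib animal 2 and 5xFAD-Dp16 sham animal 4). DESeq2 called 4 genes against WT (0.0229%), 1 against 5xFAD-Dp16 (0.00571%) and 2 against 5xFAD (0.0114%). Among the DESeq2 calls, Vps37c differed from WT by 0.68 (adjusted p = 0.00541 by DESeq2, against 0.241 by edgeR), with a fold change of 0.39 in Dp16 and -0.28 in WT animals. Armc6 differed from 5xFAD by 0.74 (adjusted p = 0.00825 by DESeq2), with a fold change of 0.46 in Dp16 and -0.29 in 5xFAD animals. In 5xFAD-Dp16 animals the log2 fold change of Armc6 was 0.30, in the same direction as in Dp16. The remaining calls were Chrna6, Foxb1, Sox14 and a gene model with no name of its own, and Chrna6 was at 0 CPM in 7 of the 8 Dp16 animals. The DESeq2 log2 differences of Foxb1 (-35.7 against WT) and Sox14 (-37.6 against 5xFAD) are too extreme to be read as folds, and edgeR called neither gene.

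Gene lists outside the pathway were read for their direction and their levels in each animal, and none held a called gene other than mt-Atp8. The sign of the median changed for 20 of the 36 lists, that of the mitochondrial genes among them, when 1 of the 8 libraries was left out, so medians near 0 carry no direction. In bulk tissue, fewer cells of a type and less RNA per cell cannot be told apart. Of 28 neuronal immediate-early genes, which follow recent activity, 27 lay above 0 with a median of 0.15, which was 0.10 without tofacitinib animal 5 and 0.23 without sham animal 3. Fos stood at 12.7, 14.8, 16.9, 10.8 and 16.5 CPM in tofacitinib animals and 9.48, 9.28 and 9.22 CPM in sham animals. The groups of Fos did not overlap (0.64, SE 0.374, adjusted p = 1.0), while the list's levels overlapped, at 4.74 to 5.13 in tofacitinib and 4.74 to 4.81 mean log2 CPM in sham animals. In WT animals the list stood at 4.95 ± 0.16 with tofacitinib and 5.10 ± 0.39 with sham (SD, n = 5 each).

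Of 19 circadian clock genes 14 lay above 0, with a median of 0.13. The activator Clock lay below 0, at 71.3, 68.6, 77.6, 75.2 and 70.2 CPM in tofacitinib animals and 79.1, 85.6 and 81.3 CPM in sham animals, without overlap (-0.18, SE 0.081, adjusted p = 1.0). The repressor Cry1 had a log2 fold change of 0.33 (SE 0.154) with overlap. The mean level of the list did not overlap between groups, at 5.49 to 5.72 in tofacitinib and 5.45 to 5.47 mean log2 CPM in sham animals. Among the 36 lists the other without overlap was the glutamate receptor and postsynaptic list, which was lower in tofacitinib animals. The labels used here do not give the hour of tissue collection, and its part in these values was not tested.

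The 44 ribosomal protein genes had a median of 0.08 with 1 below 0. Their mean log2 CPM was 8.16 in tofacitinib animal 1 and 7.67 to 7.74 in the other tofacitinib animals, against 7.62 to 7.92 in sham animals, and without tofacitinib animal 1 the median was -0.03. Transcript length moved with the comparison as well. The 4320 genes with gene models of 4800 bases or more (24.7% of those tested) had a median log2 fold change of -0.06 with 2972 below 0, and they made up 60.7% of the genes whose groups did not overlap and were lower. Genes of 600 to 1200 bases had a median of 0.06. In each animal the median of genes of 4800 bases or more was set against that of genes of 600 to under 2400 bases. Each gene was first centred on its mean log2 CPM over the 8 Dp16 libraries. By this measure tofacitinib animal 1 stood lowest, at -0.15 on the log2 scale. Sham animals 1 and 2 stood highest at 0.11 and 0.10, with sham animal 3 at -0.02. The part of this trend in the values of long and short genes named above was not tested.

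**Figure D4:**
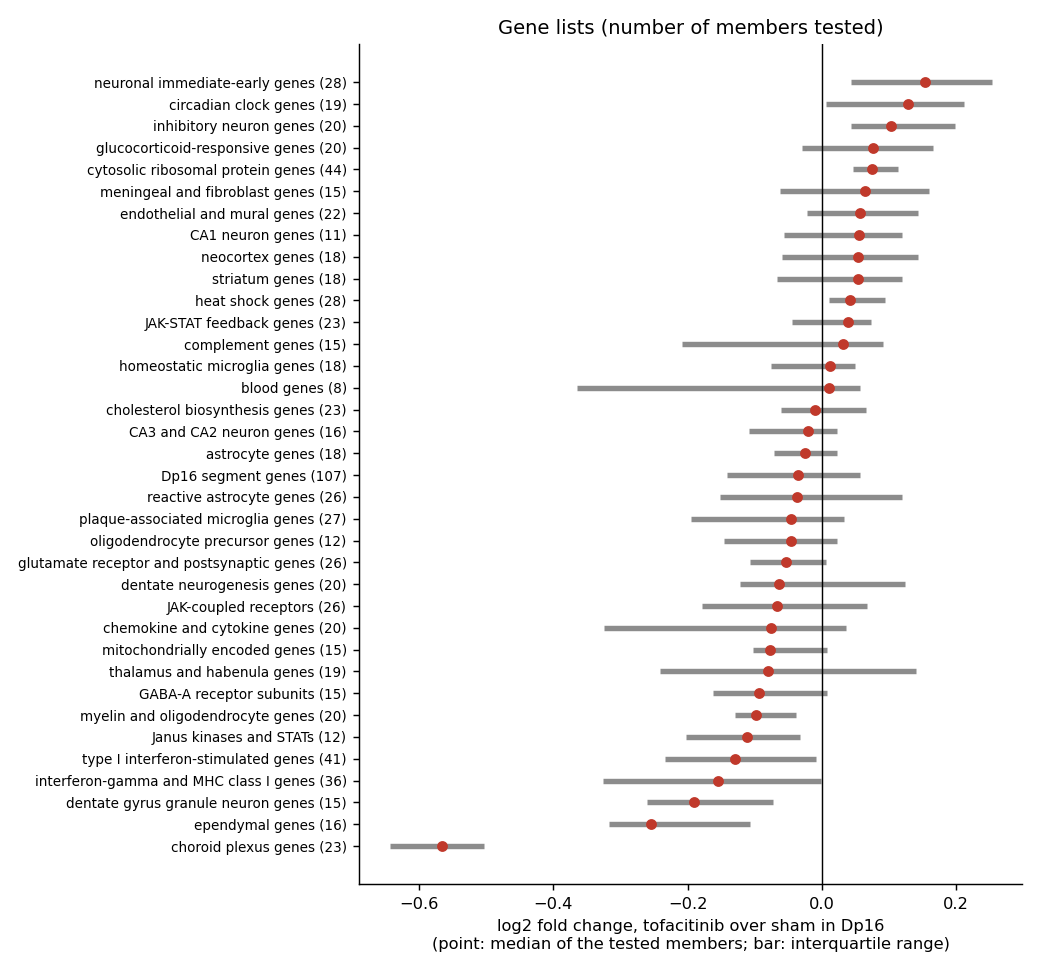
Median (points) and interquartile range (bars) of the log2 fold change of tofacitinib over sham in Dp16 animals for each gene list, with the number of tested members in brackets. Most medians lie between -0.2 and 0.2, and that of the choroid plexus genes lies lowest at -0.57.

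Genes of the choroid plexus, the secretory epithelium of the ventricles that borders the hippocampus, showed the lowest list median. All 23 lay below 0, with a median of -0.57, and none was called. Ttr, the thyroid hormone carrier secreted by this epithelium, stood at 326, 4683, 16.3, 1305 and 27.6 CPM in tofacitinib animals and 2466, 2089 and 812 CPM in sham animals. Values of Ttr differed by over 2 orders of magnitude within the tofacitinib group, which held both the highest and the lowest animals. Kl, the hormone co-receptor Klotho, stood at 16.1, 150, 12.3, 44.5 and 18.3 CPM in tofacitinib animals and 96.8, 92.4 and 28.0 CPM in sham animals, with tofacitinib animal 2 again the highest. The median of the list was -2.14 without tofacitinib animal 2, -0.92 without sham animal 3, and between -0.54 and -0.29 without any one of the others. The summed level of 6 defining markers was 39.5 to 5110 CPM in tofacitinib and 884 to 2720 CPM in sham animals, and none of the 6 was at 0 in any of the 8 libraries. The part of choroid plexus RNA in any other result was not tested.

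**Figure D5:**
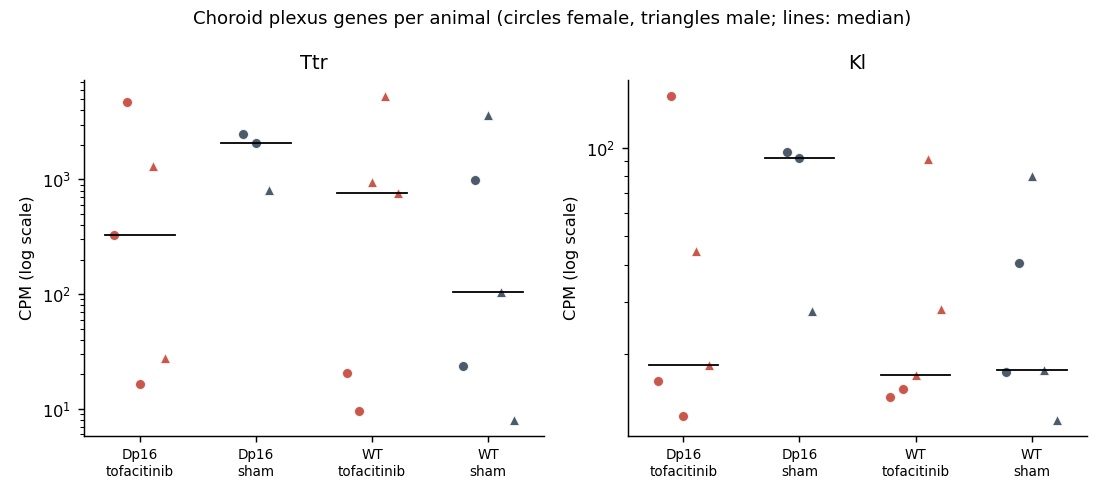
Levels of Ttr and Kl in CPM (log axes) in each Dp16 and WT animal, tofacitinib left of sham, with lines for medians. In Dp16 animals Ttr spans 16.3 to 4683 CPM with tofacitinib and 812 to 2466 CPM with sham.

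Among the other tissue and cell lists, all 16 ependymal genes lay below 0 (median -0.25), as did 13 of 15 dentate granule neuron genes (median -0.19) and 18 of 20 myelin and oligodendrocyte genes (median -0.10). Inhibitory neuron genes lay above 0 in 16 of 20 cases (median 0.10), and the interneuron peptide Sst had the smallest p of them (0.27, SE 0.246). Their median was 0.07 without tofacitinib animal 5. The ependymal median was -0.10 without sham animal 2, and the levels of that list overlapped, at 1.33 to 1.88 mean log2 CPM in tofacitinib and 1.68 to 2.17 in sham animals. The levels of the dentate list overlapped as well, at 5.03 to 5.38 mean log2 CPM in tofacitinib and 5.18 to 5.41 in sham animals. The myelin list was -0.21 without sham animal 3 and 0.04 without sham animal 2, so its sign rested on 1 sham animal. Homeostatic microglia genes had a median of 0.01, astrocyte genes -0.03 and plaque-associated microglia genes -0.05. Chemokine and cytokine genes, of which 20 were tested, had a median of -0.08 with 14 below 0 and none called, and the median was 0.03 without sham animal 1. The subunit gene Grin2b of the NMDA receptor stood at 346, 382, 369, 411 and 418 CPM in tofacitinib animals and 501, 524 and 466 CPM in sham animals. Its groups did not overlap (-0.37, SE 0.344, adjusted p = 1.0). The SE draws on the spread in all 34 libraries. Among these, Grin2b was at 112 CPM in 5xFAD-Dp16 sham animal 4 and 640 CPM in 5xFAD tofacitinib animal 4. Of 26 glutamate receptor and postsynaptic genes, 18 lay below 0 with a median of -0.05. The levels of that list did not overlap, with a mean log2 CPM of 7.83 in tofacitinib and 7.90 in sham animals.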

How the data were processed

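Total RNA of the hippocampus was enriched for poly(A), made into strand-specific libraries and sequenced, per the labels' protocols. The authors deposited whole-number read counts per gene (unnormalised) and RPKM, which equalled the counts divided by library total and gene length. RPKM was used only to compare levels between genes. Tools listed in the submitters' processing notes were HISAT2 2.1.0 and HTSeq 0.6.1, with SAMtools 1.5, FastQC 0.11.5 and bcl2fastq, and the build was GRCm38. The setting for strand and the handling of reads with several matches are not given in the sources used here. Positions came from GENCODE annotation of the same build (99.6% of 55385 identifiers matched).

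All 34 libraries were fitted together with edgeR 4.0.16 (R 4.3.3): TMM, filterByExpr, 8 group means and a sex term, robust quasi-likelihood F-test, two-sided, Benjamini-Hochberg adjustment over 17518 genes, threshold 0.05. Unless another tool is named, each adjusted p is from this test. DESeq2 1.42.0 and other settings were alternatives. Each standard error was the absolute log2 fold change divided by the square root of the F statistic. Intervals of 95% used this standard error and a quantile of the t distribution. The level of a list in an animal is the mean of its members' log2 CPM (prior count 2). Lists were described by counts and medians, without tests.

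Genes were named by a rule: a set of check genes, up to 15 largest called changes in each direction, the smallest p up to 10 genes in each direction with at least 1 CPM, 3 or 5 members of smallest p per list, and 5 per difference between genotypes. Pseudogenes and unnamed gene models were left out. The text gives a selection of these, and the others are not reported here. Chrna6, Foxb1, Sox14, Bc1, Tagln and the length groups were added after their values were seen. The comparison and the lists were chosen with earlier results of these data known. Each p-value of the main fit sets a difference against the spread between animals, estimated over all 34 libraries.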

Additional observations from a re-analysis of the deposited data

Results flagged for a closer look

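Of 112 genes and lists examined in the 5 tofacitinib animals of the Dp16 genotype, 12 had 1 animal far from the other 4, judged by its gap relative to the range of the group. Chance gives about 1 such animal in 20 groups. Tofacitinib animal 1 was high for mt-Atp6 (307 CPM, others 84.5 to 121 CPM), mt-Co2 (155 CPM, others 78.1 to 98.9 CPM), mt-Co3 (123 CPM, others 75.6 to 85.3 CPM) and the tRNA methyltransferase gene Trmt1 (38.6 CPM, others 33.2 to 34.7 CPM). Its mean log2 CPM of cytosolic ribosomal protein genes was 8.16. Tofacitinib animal 2 was high for the choroid plexus genes Ttr (4680 CPM, others 16.3 to 1310 CPM), Kl (150 CPM, others 12.3 to 44.5 CPM) and Trpv4 (12.4 CPM, others 0.466 to 3.52 CPM), and its mean log2 CPM of Janus-kinase-coupled receptor genes was 3.4, against 3.04 to 3.13 in the others. Tofacitinib animal 3 was high for the feedback inhibitor Socs3 (2.05 CPM, others 1.55 to 1.60 CPM) and held the only counts of Chrna6 among the 8 Dp16 animals (0.143 CPM). Tofacitinib animal 5 was low for Stat2 (11.9 CPM, others 16 to 17 CPM).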

How the results depend on the processing

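The 1 called gene of tofacitinib against sham in Dp16 became 3 with no filter on low counts (mt-Atp8, Bc1 and Tagln), 2 with DESeq2, and 0 with the compared groups alone, and it was 0 to 1 when each Dp16 library was left out in turn. Within the lists the counts were 0 when the compared groups were fitted alone, 2 without the filter and 0 to 1 without single libraries. For the difference from WT, 0 became 32 with no filter and 4 with DESeq2. For the difference from 5xFAD-Dp16 it became 100 with no filter and 1 with DESeq2, and for 5xFAD 96 with no filter, 2 with DESeq2 and 0 to 1 without single libraries. At an unadjusted p under 0.05 there were 347 genes of tofacitinib against sham in Dp16, of 17518 tested. The count became 641 with no filter, where far more genes were tested, so it does not by itself show a larger share. It became 612 when the compared groups were fitted alone, where fewer genes were tested, so the share rose too. The count became 508 without the 3 libraries of other genotypes that were low in hippocampal markers. The 1 gene gained against 5xFAD without single libraries was mt-Atp8. The causes were not tested. The fold change of mt-Atp8 was below 0 in each of these fits. With the replicate number as a block 0 genes were called, 0 within the lists, and mt-Atp8 had -1.11 (adjusted p = 0.554). Same-numbered animals correlated at -0.096, 0.096 and 0.064, so the numbers were not taken to pair the animals. The sign of 20 of 36 list medians changed when 1 library was left out, of 7 with the block, and of 0 under the other settings. Chrna6, Socs1 and other genes near or below 1 CPM are limited by depth.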
